A study of Mus musculus with 59 samples.

Results

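The 9 aquaporin genes Aqp1, Aqp2, Aqp3, Aqp4, Aqp5, Aqp7, Aqp8, Aqp9 and Aqp11 were taken by symbol from tables of 21706 genes and followed in 59 RNA sequencing libraries from 29 mated female mice aged about 2 to 6 months. Control females were Esr1f/-, carrying Esr1, the gene of oestrogen receptor alpha, as 1 floxed and 1 null copy. Knockout females were epiERa-/- (Esr1f/-Wnt7aCre/+) and carried, besides the same 2 alleles, a Wnt7aCre transgene that acts in uterine epithelium, glands included. Esr1 is thus to be lost in epithelium and kept in stroma and muscle, and the null allele is shared by both genotypes. All females had been mated with wild-type males and were dissected on the plug day (D0.5) or on D3.5. LE is the luminal epithelium scraped from uterus after 30 min in 0.5% dispase, represented at D0.5 by 9 control and 7 knockout libraries and at D3.5 by 4 and 6. U is an undigested piece of whole uterus, with 6 control and 4 knockout mice at D0.5 and 5 of each at D3.5. DU is a piece of the digested uterus kept before scraping, with 4 control and 3 knockout mice at D0.5 and 3 of each at D3.5. The number of a library names its mouse, so LE, U and DU libraries of 1 number share an animal, and within a group all mice differ.

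Aquaporins are membrane channels through which water, and for some members glycerol and other small solutes, cross cell membranes along their gradients. Aqp1, Aqp2, Aqp4, Aqp5 and Aqp8 encode water channels (Aqp8 also passes ammonia), Aqp3, Aqp7 and Aqp9 encode aquaglyceroporins, which pass glycerol too, and Aqp11 encodes a distant family member found mainly in the endoplasmic reticulum. In the rodent uterus oestrogen is known for tissue swelling and luminal fluid around mating, and progesterone for fluid resorption and closure of the lumen before implantation.

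Total counts per library were 13468447 to 80312395 in LE, 11305113 to 108002365 in U and 14053781 to 46214387 in DU. Esr1 did not overlap between genotypes in LE on either day (34.8 to 62.9 against 110.4 to 273 CPM at D0.5, CPM being counts relative to the scaled library size within a tissue), in U at D0.5 or in DU. It overlapped in U at D3.5, where the library labelled knockout 33 held 212 CPM, above all 5 controls (135 to 195 CPM). Whole uterus includes stroma and muscle, which keep Esr1, so this value does not settle the label of library 33. Summed markers of smooth muscle were 39.1 to 271 CPM in LE and 5712 to 17021 CPM in U, and those of stroma 509 to 5732 and 10267 to 23474 CPM, so LE was depleted of both and free of neither. In bulk RNA, fewer cells of a type and less RNA per cell cannot be told apart.

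Per unit of transcript length (TPM, as deposited), Aqp1 dominated whole uterus and a different set of members dominated the epithelium. Aqp1, the water channel of endothelium and red cells, led all 20 U and all 13 DU libraries and made up 71.6% to 84.5% of the summed aquaporin TPM of those groups. In control LE the leading member changed with the day, from Aqp5 at D0.5 (59.6% of a mean sum of 70.8 TPM, leading in 6 of 9 libraries) to Aqp11 at D3.5 (61.1% of 92.8 TPM, leading in 4 of 4), followed by Aqp1 (33.8%). Control mouse 1 alone had a D0.5 sum of 258 TPM, of which 80.6% was Aqp5, against sums of 18.7 to 122 TPM in the other 8 libraries. Knockout LE held Aqp4 (44.6%) and Aqp5 (40.8%) at D0.5, out of 114 TPM. At D3.5 its sum was 199.9 TPM, of which Aqp11 took 38.5%, Aqp4 24.8%, Aqp5 18.4% and Aqp1 13.8%. Aqp2, Aqp3, Aqp7, Aqp8 and Aqp9 each stayed under 6% in every group. Of 3 further rows of the family, Mip and Aqp12 reached at most 0.599 and 1.37 CPM and Aqp6 0.967 CPM in any library.

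**Figure D1:**
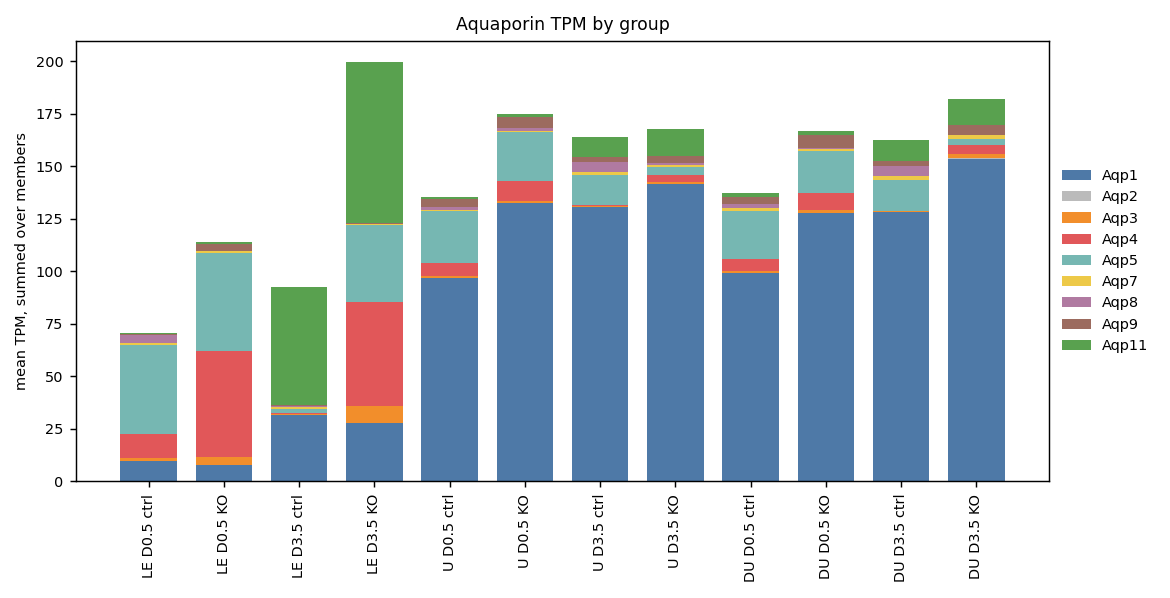
Mean TPM of the 9 aquaporin genes (vertical axis, stacked) in each of the 12 groups of tissue, day and genotype (ctrl, control; KO, knockout). Aqp1 fills most of every U and DU bar. The control LE bar changes from mainly Aqp5 (59.6%) at D0.5 to mainly Aqp11 (61.1%) at D3.5. The knockout LE bar holds mainly Aqp4 and Aqp5 at D0.5, and Aqp11 (38.5%), Aqp4 (24.8%) and Aqp5 (18.4%) at D3.5. Aqp4 takes 0.431% of the control LE bar at D3.5.

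Genes were called at an adjusted p under 0.05 in edgeR's quasi-likelihood test over all genes tested in a tissue; of the 9 members 7 passed the filter on low counts in LE (not Aqp2 and Aqp8) and 8 in U and DU (not Aqp2). Knockout against control called 2 of 7 members in LE at D0.5, where 23.6% of all tested genes were called, and 2 of 7 at D3.5, where 13.5% were. In U it called none of 8 at D0.5 (4.98% of all genes) and none at D3.5 (0.0185%, or 3 genes, and 0 to 112 genes with single libraries left out), and in DU 1 of 8 at D0.5 (8.06%) and 1 of 8 at D3.5 (0.574%). At an unadjusted p under 0.05, 0 members passed in U at D0.5 and 3 at D3.5, and DESeq2 called 0 and 1. Every called member was higher in knockout, and the median log2 fold change of tested members was 0.42 in LE at D0.5 and 0.12 at D3.5, beside −0.01 for all genes on both days. In U the medians were 0.13 and 0.34 and in DU 0.55 and 0.43, beside 0.01 to 0.02 for all genes. D3.5 against D0.5 called 4 of 7 members in control LE (44% of all genes) and 4 of 7 in knockout LE (41.6%). It called 2 of 8 in each of control U (34.2%), knockout U (25.5%), control DU (34.4%) and knockout DU (30.2%). The effect of knockout differed between days for 3 of 7 members in LE (16.5% of all genes), none in U (1.43%, with 2 members at an unadjusted p under 0.05 and 1 called by DESeq2) and 1 in DU (1.88%). Counts out of 7 or 8 members are too small to set the family apart from these shares of all genes, and the comparisons of a tissue share libraries.

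**Figure D2:**
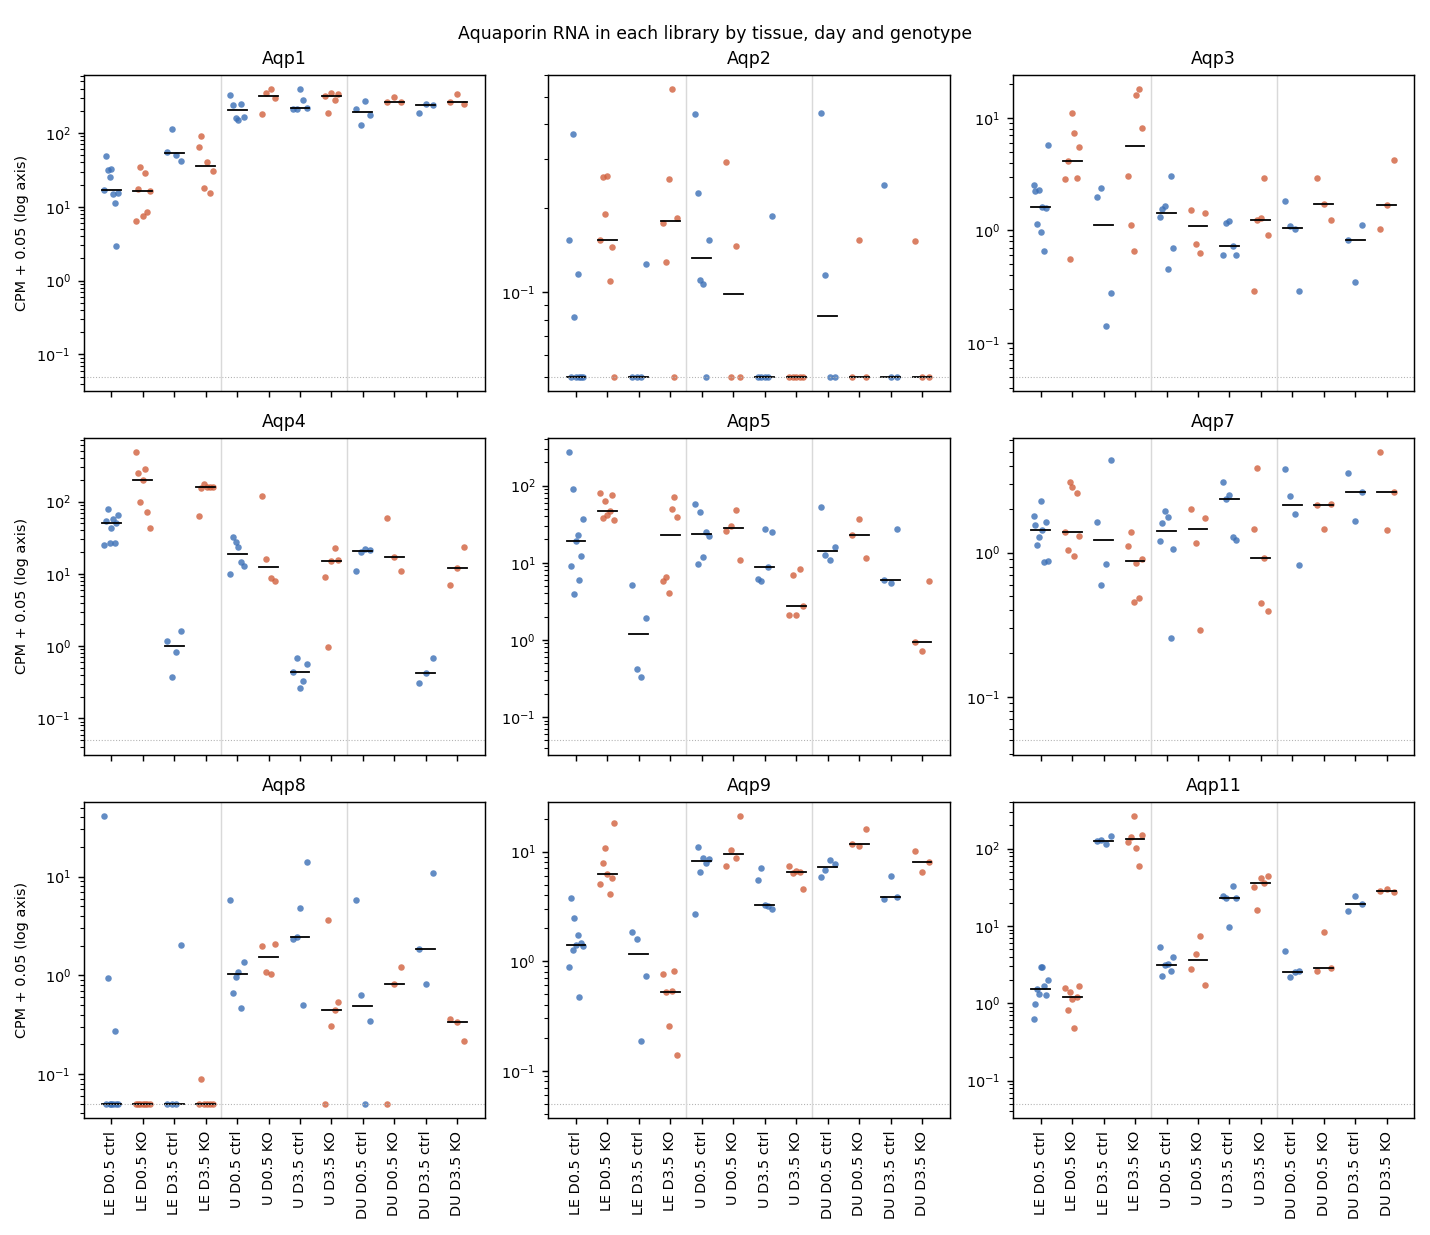
CPM + 0.05 (log axis) of each aquaporin gene in every library, by group; points are libraries (blue control, orange knockout), black bars are medians and the dotted line marks a count of 0. Aqp4 in D3.5 controls is at 0.210 to 1.59 CPM in all 3 tissues, below every D3.5 knockout library of its tissue, Aqp11 is high at D3.5 in every group, and Aqp8 sits at 0 in most LE libraries.

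Aqp4, a water channel best known from brain astrocytes and also found in several epithelia, had the largest fold change between genotypes among the members tested, in LE at D3.5, where it was higher in knockout. Control LE held 25.3 to 79.0 CPM at D0.5 (median 50.4, n = 9), and knockout LE 42.5 to 478 CPM (median 201, n = 7). The groups overlapped only through knockout libraries 26 and 27 (72.0 and 42.5 CPM), while the other 5 lay above every control. The log2 fold change was 2.09 ± 0.37 (SE, adjusted p = 0.000147), with means of 203 ± 151 and 47.6 ± 19.0 CPM (SD). At D3.5 control LE held 1.13, 0.321, 0.783 and 1.59 CPM, and the 6 knockout libraries 63.1 to 175 CPM (median 159.7). No knockout library came near a control, with a log2 fold change of 7.29 ± 0.70 (adjusted p = 9.8e-08) and of 7.17 (adjusted p = 2.87e-06) without mice 35, 36 and 37, which stood apart at this stage in other genes.

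Over the days, Aqp4 fell in control LE by 5.67 ± 0.64 on the log2 scale (adjusted p = 6.05e-08), while in knockout LE the change was −0.48 ± 0.41 (adjusted p = 0.37). The difference between the knockout effects of the days was 5.20 ± 0.72 (adjusted p = 1.48e-05). Control U likewise dropped from 10.1 to 32.8 CPM (median 18.8, n = 6) at D0.5 to 0.387, 0.647, 0.210, 0.282 and 0.514 CPM at D3.5, a log2 change of −5.58 ± 0.87 (adjusted p = 4.03e-05). General epithelial markers also fell there, with 9 of 10 lower (median −2.77) and sums of 5022 to 10544 CPM at D0.5 and 708 to 1537 CPM at D3.5. Their part in the fall of Aqp4 was not tested. Knockout U held 119.8, 16.0, 8.74 and 8.00 CPM at D0.5, with mouse 21 alone far above the controls. At D3.5 its libraries 32, 34, 35 and 37 held 9.07, 14.9, 23.0 and 15.4 CPM, and library 33, which had the most Esr1 in U at D3.5, held 0.920 CPM. All 5 thus lay above all 5 controls, but the log2 fold change of 4.91 ± 0.86 missed the threshold (adjusted p = 0.0539). Without library 33 it was 5.20 (adjusted p = 0.0012), and DESeq2 called it with all 5 libraries (adjusted p = 6.6e-07).

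DU also held more Aqp4 in knockout at D3.5. Control DU held 11.0, 20.01, 22.3 and 21.1 CPM at D0.5 and 0.257, 0.382 and 0.637 CPM at D3.5, a log2 change of −5.32 ± 0.70 (adjusted p = 7e-05), with 9 of 10 general epithelial markers lower too (median −2.78). Knockout DU held 58.3, 17.3 and 11.0 CPM at D0.5 and 7.01, 12.0 and 23.3 CPM at D3.5. The genotypes overlapped at D0.5 and did not at D3.5, where the log2 fold change was 4.92 ± 0.71 (adjusted p = 0.00663). The difference of effects between days, 4.28 ± 0.87, passed in DU (adjusted p = 0.025) and lost its call without any of libraries 5, 11, 14, 16 or 35, at 3.72 to 4.76. In U it was 3.99 ± 1.10 (adjusted p = 0.0798), and 5.79 (adjusted p = 0.00226) without knockout library 21. The order of mean TPM ran from knockout LE at D0.5 (50.8 ± 40.9) and D3.5 (49.6 ± 13.4), which overlapped, down to control DU (0.122 ± 0.054) and control U (0.105 ± 0.056) at D3.5.

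**Figure D3:**
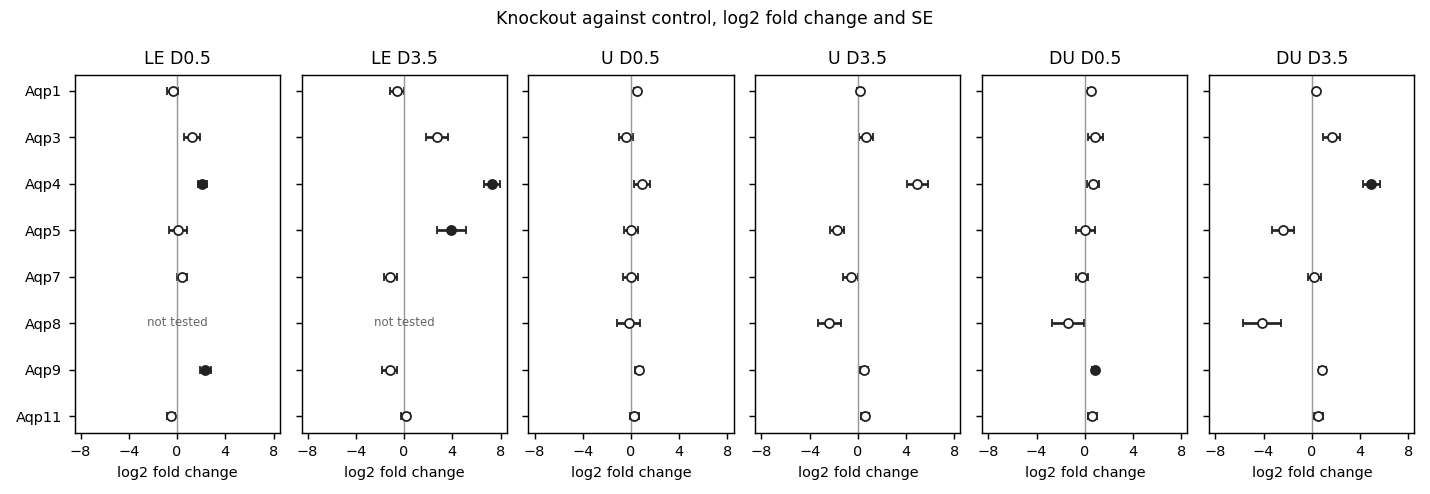
Log2 fold change of knockout against control (horizontal axis, bars are SE) for the 8 aquaporin genes tested in any tissue, in LE, U and DU at each day; filled points passed an adjusted p of 0.05. Aqp4 at D3.5 lies at 7.29 in LE, 4.91 in U and 4.92 in DU, and Aqp5 at D3.5 lies above 0 in LE and below 0 in U and DU.

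Of 7 listed gland markers 5 were tested in LE, and 3 (Foxa2, Cxcl15 and Spink1) were higher in knockout on both days. Of all genes, 23.6% were called at D0.5 and 13.5% at D3.5, in either direction. At D0.5 these 3 did not stand for the whole list, and the summed level of all 7 had the lower median in knockout. It was 136 to 688 CPM (median 357) in control and 97.6 to 1222 CPM (median 212) in knockout LE. At D3.5 it was 17.2 to 48.9 CPM (median 23.4) against 81.2 to 175 CPM (median 93.1). Prss28 and Prss29 were at 0 in control LE at D0.5 and in knockout LE at D3.5, and Prss28 was at 0 in control LE at D3.5. Among knockout LE libraries at D0.5, 26 and 27, lowest in Aqp4, had the highest gland sums (1079.5 and 1221.7 CPM). Library 21, highest in Aqp4, had the lowest (97.6 CPM). The part of glands in the Aqp4 difference was not tested. In U at D3.5 the summed gland markers overlapped (96.1 to 193 against 107.9 to 190.4 CPM). Of 9 tested partners that anchor Aqp4 to the dystrophin complex, none was called in LE at D0.5 (median log2 fold change 0.06, with 23.6% of all genes called) and 4 were higher at D3.5 (median 0.76, all genes −0.01, with 13.5% of all genes called). They included Agrn, an extracellular matrix organiser (1.04 ± 0.24), Dmd, dystrophin itself (0.85 ± 0.24), and Dtnb, a dystrobrevin (0.82 ± 0.27). The genes whose log2 CPM followed Aqp4 most closely over the 26 LE libraries were Adamdec1 (Pearson r = 0.92), Tenm1 (0.90) and Zfp750 (0.90), a description over libraries that share the same 4 groups.

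Aqp5, the water channel of glandular and airway secretory epithelia, was abundant at D0.5 and varied widely between mice. Control LE at D0.5 held 3.84 to 268 CPM (median 19.3, n = 9) and knockout LE 35.5 to 80.4 CPM (median 47.4, n = 7). The groups overlapped, with a log2 fold change of 0.06 ± 0.74 (adjusted p = 0.967), and control mouse 1, at 268 CPM, stood apart. At D3.5 control LE held 5.14, 0.367, 0.276 and 1.90 CPM. Knockout libraries 31, 32 and 34 held 5.81, 6.47 and 3.97 CPM, and 35, 36 and 37 held 49.98, 70.9 and 39.3 CPM. The log2 fold change of 3.92 ± 1.17 passed (adjusted p = 0.0251), and was 1.52 (adjusted p = 0.489) without mice 35, 36 and 37. The call was also lost without control library 14, 15 or 16 or knockout library 36, at 3.45 to 3.92.

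From D0.5 to D3.5 Aqp5 fell in control LE by 4.75 ± 1.20 on the log2 scale (adjusted p = 0.00204). In knockout LE the change was −0.89 ± 0.83 (adjusted p = 0.417), and −3.35 (adjusted p = 0.027) without mice 35, 36 and 37. The difference between the effects of the days, 3.86 ± 1.35, passed narrowly (adjusted p = 0.0495), was 1.41 (adjusted p = 0.555) without those mice and 2.80 (adjusted p = 0.0869) without control library 1, and lost its call without any of 15 other single libraries (3.38 to 3.96). In whole tissue the fall from D0.5 to D3.5 passed in knockout: −2.71 ± 0.62 in U (adjusted p = 0.00264) and −3.26 ± 0.92 in DU (adjusted p = 0.0167, and 0.0665 or 0.0652 without library 32 or 34), against −0.97 ± 0.55 and −0.84 ± 0.78 in controls (adjusted p = 0.194 and 0.454). General epithelial markers fell as well, with 7 of 10 lower in knockout U (median −1.41), 8 of 10 in knockout DU (−1.71) and 9 of 10 in control U and DU (−2.77 and −2.78), and their part was not tested. Whether genotypes differ in the Aqp5 change was tested, and the difference did not pass in U (−1.75 ± 0.81, adjusted p = 0.45) or DU (−2.42 ± 1.16, adjusted p = 0.336). Knockout U held 2.08, 6.80, 2.07, 8.32 and 2.72 CPM at D3.5 against 6.15, 5.74, 27.2, 8.64 and 25.2 CPM in control U, a log2 fold change of −1.74 ± 0.59 (adjusted p = 0.682). The DU value was −2.38 ± 0.90 (adjusted p = 0.476), so the direction in U and DU at D3.5 was opposite to that in LE, a contrast between tissues that was not tested.

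Markers of stratified epithelium, the lining of cervix and vagina, stood beside these LE values, and the digested uterine horns were still joined by the cervix. The summed level of 8 markers at D3.5 was 8.42 to 142 CPM in control LE, 263, 237 and 135 CPM in knockout libraries 31, 32 and 34, and 2548, 3307 and 1467 CPM in 35, 36 and 37. Krt6a was at 0 in all LE libraries of that day, and 1 of the 8 markers (Krt15) was called higher in knockout (13.5% of all genes called). In whole tissue at D3.5 the sums were 1.30 to 2.52 CPM in control U and 0.968 to 2.08 CPM in control DU. Knockout U held 1.89 CPM in library 33, which had the least Aqp4 of its group, and 269 CPM in library 35, which had the most. Knockout DU held 9.84 to 282 CPM, library 35 again being highest for both. In each of U and DU 1 marker was called higher, beside 0.0185% and 0.574% of all genes called. The part of these cells in the Aqp4, Aqp5 and Aqp3 values was not tested. Genes nearest to Aqp5 over the LE libraries were Ptpru (r = 0.86), Sdc1 (0.80) and Ankrd22 (0.80).

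Aqp3, an aquaglyceroporin of stratified and transporting epithelia, was a low member that passed in no genotype or day comparison. At D3.5 control LE held 1.92, 2.34, 0.0921 and 0.228 CPM. Knockout libraries 31, 32 and 34 held 3.01, 1.06 and 0.611 CPM, within or near the control range, and 35, 36 and 37 held 16.1, 18.1 and 8.08 CPM, above every control. The log2 fold change was 2.75 ± 0.94 (adjusted p = 0.0519), while DESeq2 (2.77, adjusted p = 0.00669) and limma on log2(TPM + 1) (1.80, adjusted p = 0.0186) called it. That limma fit called 3785 genes higher and 465 lower, and moved the median log2 fold change of all genes by 0.39. In whole uterus at D3.5 knockout library 35 held the most Aqp3 (2.88 CPM in U, 4.15 CPM in DU) and the most stratified markers. At D0.5 LE held 0.607 to 5.71 CPM in control (median 1.55) and 0.506 to 10.9 CPM in knockout (median 4.10), overlapping (adjusted p = 0.181), and control mouse 9, the highest, also had the most stratified markers of its group (524 CPM). S100a14 (r = 0.85), S100a16 (0.84) and Apobec1 (0.82) followed Aqp3 most closely in LE.

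**Figure D4:**
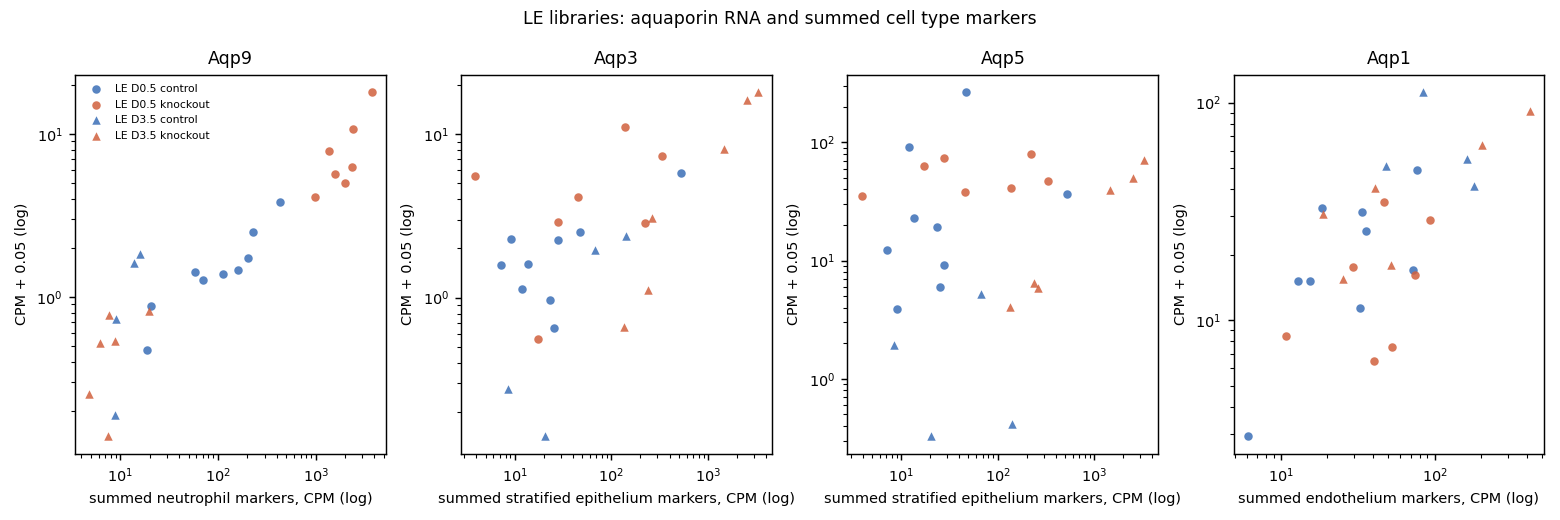
LE libraries by the summed CPM of a cell type's markers (horizontal, log) and an aquaporin's CPM + 0.05 (vertical, log); blue control, orange knockout, circles D0.5, triangles D3.5. The D0.5 knockout libraries hold both the most Aqp9 and the most neutrophil markers. Knockout libraries 35, 36 and 37 lie at the top right for Aqp3, at 8.08 to 18.1 CPM with 1467 to 3307 CPM of stratified markers.

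Aqp9, the aquaglyceroporin of liver and of leukocytes including neutrophils, rose in knockout LE at D0.5. Control libraries held 0.425 to 3.75 CPM (median 1.37, n = 9) and knockout libraries 4.04 to 18.1 CPM (median 6.19, n = 7). The lowest knockout library lay above the highest control, with a log2 fold change of 2.35 ± 0.46 (adjusted p = 0.0004). At D3.5 the values were 1.79, 1.56, 0.138 and 0.683 CPM in control and 0.0893 to 0.765 CPM (median 0.478) in knockout LE, overlapping, at −1.19 ± 0.61 (adjusted p = 0.218). The effect of knockout thus differed between days by −3.54 ± 0.76 (adjusted p = 0.00176), and Aqp9 fell from D0.5 to D3.5 in knockout LE by 4.15 ± 0.59 (adjusted p = 2.51e-06), while control LE had −0.61 ± 0.57 (adjusted p = 0.41).

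Neutrophil markers moved in parallel in knockout LE. Of 8 listed, 7 were higher and 1 lower in knockout LE at D0.5, with a summed level of 18.8 to 427 CPM in control and 980.2 to 3770.3 CPM in knockout, and at D3.5 the sums were 8.94 to 16.0 and 4.84 to 19.8 CPM, with none of the 8 at 0 in a whole group. In control LE the sums fell from a median of 113 CPM at D0.5 to 11.4 CPM at D3.5, while the Aqp9 change there did not pass. Control U at D3.5 held a mean of 4.35 CPM of Aqp9 with neutrophil sums of 53.5 to 124 CPM. Among knockout LE libraries at D0.5, mouse 27 had both the most Aqp9 (18.1 CPM) and the most neutrophil marker RNA. The part of neutrophils in the Aqp9 values was not tested. Nfe2 (r = 0.95) and Clec4d (0.94) were nearest to Aqp9 over LE libraries. In DU at D0.5, Aqp9 was at 5.79, 6.67, 8.33 and 7.59 CPM in control and 11.7, 11.1 and 16.0 CPM in knockout, without overlap, with neutrophil sums of 115 to 755 and 1387 to 3283 CPM. That log2 fold change of 0.87 ± 0.25 was called (adjusted p = 0.0459) and lost its call without any 1 of the 7 libraries (0.69 to 0.97, adjusted p 0.0510 to 0.164). U at D0.5 had 0.65 ± 0.34 (adjusted p = 0.38), with neutrophil sums of 118 to 1077 and 1762 to 3335 CPM, and DU at D3.5, where 6.45 to 10.0 CPM lay above 3.60 to 5.98 CPM, had 0.87 ± 0.27 (adjusted p = 0.3).

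Aqp7, the aquaglyceroporin of fat cells and testis, stayed between 0.207 and 4.89 CPM in all 59 libraries and passed in no genotype comparison. It fell in knockout LE from 0.904 to 3.04 CPM (median 1.35) at D0.5 to 0.407 to 1.34 CPM (median 0.820) at D3.5, by 1.16 ± 0.45 on the log2 scale (adjusted p = 0.0373), with overlapping groups. Of 6 adipocyte markers 2 were tested, of which 1 was also lower, with 41.6% of all genes called. The marker sums were 1.93 to 4.74 CPM at D0.5 and 0.164 to 2.45 CPM at D3.5, with Cidec and Lep at 0 at D3.5. The part of fat cells was not tested. Control LE had 0.38 ± 0.46 (adjusted p = 0.539), and the difference between the genotypes, −1.54 ± 0.64, did not pass (adjusted p = 0.0997). The call of the fall was lost on TPM, with no filter on low counts, without mice 35, 36 and 37 (−0.98, adjusted p = 0.213) and without library 23, 24, 26, 34, 35, 36 or 37 (−1.17 to −0.996). Among 10 genes of glycerol handling, Gk, glycerol kinase, was higher in knockout LE on both days (1.41 ± 0.26 and 1.94 ± 0.38) and Gk5, a glycerol kinase paralogue, lower (−0.92 ± 0.22 and −1.69 ± 0.27). Gpd1l, which encodes a glycerol-3-phosphate dehydrogenase-like enzyme, was higher at D3.5 (0.59 ± 0.19). Of all genes, 23.6% were called in knockout against control LE at D0.5 and 13.5% at D3.5.

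Aqp11 had the largest change between days among the members in LE, and it rose from D0.5 to D3.5 in all 3 tissues and both genotypes. Control LE held 0.568 to 2.93 CPM at D0.5 (median 1.46, n = 9) and 124, 129, 116 and 146 CPM at D3.5. Knockout LE held 0.422 to 1.60 CPM (median 1.14, n = 7) and then 60.1 to 264 CPM (median 132, n = 6). All D3.5 libraries lay far above all D0.5 libraries, with log2 changes of 6.28 ± 0.34 in control (adjusted p = 1.18e-13) and 6.93 ± 0.38 in knockout LE (adjusted p = 7.6e-13). The change was smaller in whole tissue, at 2.75 ± 0.36 and 3.08 ± 0.42 in control and knockout U and 2.70 ± 0.38 and 2.63 ± 0.42 in control and knockout DU (adjusted p = 4.78e-06, 1.45e-05, 0.000119 and 0.000444). Genotypes did not differ detectably on either day in LE (−0.52 ± 0.31 at D0.5, adjusted p = 0.257, and 0.12 ± 0.34 at D3.5, adjusted p = 0.866), nor did the day effect between them (0.65 ± 0.47, adjusted p = 0.388). Ap1s3 (r = 0.984), Zmpste24 (0.979) and Trim24 (0.978) tracked Aqp11 over the LE libraries, in which the day separates the libraries into 2 sets.

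Promoter windows of RefSeq (build GRCm38.p6, 250 bases before to 50 after a transcription start) were at hand for 8 of the 9 members, not Aqp4. The upstream 250 bases are shown for Aqp11, on chromosome 7 (minus strand, chr7:97738248-97738497), and Aqp5, on chromosome 15 (plus strand, chr15:99590778-99591027), as a member that rose and a member that fell from D0.5 to D3.5 in control LE. They are written 5′ to 3′ on the gene's strand and end at the start site, with capitals marking AGGTCA, the core of an oestrogen response element, or AGAACA, the core of a progesterone receptor element, on either strand.
Aqp11: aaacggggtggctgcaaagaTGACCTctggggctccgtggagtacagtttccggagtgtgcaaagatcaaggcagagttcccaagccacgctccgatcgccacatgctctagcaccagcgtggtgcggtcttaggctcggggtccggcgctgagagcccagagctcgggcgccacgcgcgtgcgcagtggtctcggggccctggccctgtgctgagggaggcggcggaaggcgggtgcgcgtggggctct
Aqp5: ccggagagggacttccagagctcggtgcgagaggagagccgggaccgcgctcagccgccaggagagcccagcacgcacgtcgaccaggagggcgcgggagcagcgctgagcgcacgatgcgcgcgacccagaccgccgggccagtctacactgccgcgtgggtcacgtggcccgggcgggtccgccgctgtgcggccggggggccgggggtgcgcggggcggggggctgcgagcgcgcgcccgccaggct

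AGGTCA, searched on both strands, was in the window of Aqp11 once, at −230 from the start, and in both windows of Aqp7, and not in that of Aqp5. It occurs in 16.3% of 32851 such windows of all genes. The full palindromic element, searched as GGTCA and its complement TGACC with 3 bases between, is in 0.0700% of all windows and was in none of the members' 10 windows. AGAACA (19.0% of windows) was in that of Aqp2, in both of Aqp7 and in 1 window of Aqp9 but not in its other window. TATAAA (13.6%) was in that of Aqp3. These matches describe letters and not binding, and elements farther away were not searched.

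Aqp1 was the most abundant member outside the epithelium. U held 148 to 396 CPM and DU 129.9 to 336 CPM over all groups, and no genotype or day comparison in these tissues passed, with log2 fold changes of −0.06 to 0.50. In LE it was at 2.88 to 48.8 CPM (median 16.9) in control and 6.45 to 35.0 CPM (median 16.1) in knockout at D0.5. At D3.5 control LE held 55.1, 112, 50.9 and 41.1 CPM and knockout LE 15.4 to 91.5 CPM (median 35.5). The day rise was 1.55 ± 0.51 in control (adjusted p = 0.0153) and 1.34 ± 0.50 in knockout LE (adjusted p = 0.032), with overlapping groups, and neither call held without control library 14 (1.14, adjusted p = 0.107) or knockout library 32 (0.98, adjusted p = 0.124), respectively; the knockout call was also lost without library 21, 24, 26, 27 or 31 (1.20 to 1.33). Genotypes overlapped on both days (adjusted p = 0.623 and 0.576).

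Endothelial and erythroid markers, of cells known to carry Aqp1, also rose with the day in control LE. Endothelial sums went from 6.05 to 77.3 CPM to 48.2 to 181 CPM, with 5 of 8 markers higher and none at 0 in a whole group. Erythroid sums went from 8.90 to 111 CPM to 506 to 2689 CPM, with 5 of 5 tested markers (of 7 listed) higher. Knockout LE had 1 of 8 and 1 of 5 higher. Its endothelial sums were 10.7 to 93.3 CPM at D0.5 and 18.7 to 421 CPM at D3.5, and its erythroid sums 12.0 to 231 and 28.9 to 475 CPM. In control LE 3 of 8 stroma markers (median 0.58, sums of 509 to 5732 and 1600.4 to 4246 CPM) and 1 of 4 mesothelium markers (median 0.95) were higher too. Of all 15601 tested genes, 3303 were higher in control LE (44% called in either direction) and 3333 in knockout LE (41.6%). A single marker of a list is not set apart from these shares. Library 14, highest in Aqp1 at D3.5, had the highest stroma sum (4246 CPM against 1600.4 to 2362 CPM) with 84.0 CPM of endothelial and 519.8 CPM of erythroid markers. Knockout library 32, without which the Aqp1 rise in knockout LE was smallest (0.98), had 421 CPM of endothelial markers, the most of its group. Its erythroid sum was 324 CPM. The part of these cells in the Aqp1 rise was not tested. Ogn (r = 0.88), Bmp6 (0.87) and Atp6v0e2 (0.87) were nearest to Aqp1 in LE.

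Aqp8 RNA was concentrated in a few mice. In LE at D0.5 control mouse 1 held 41.0 CPM, mice 3 and 7 held 0.891 and 0.223 CPM, the other 6 controls held no count, and neither did any of the 7 knockout libraries, which allows up to 0.0183 CPM over that group (3 counts, counting error only). At D3.5 control mouse 16 held 1.97 CPM and the other 3 controls 0, and 5 of 6 knockout libraries were at 0. Mouse 1 was also the highest of its group in U (5.72 against 0.415 to 1.31 CPM) and DU (5.75 against 0 to 0.589 CPM), and mouse 16 in U (14.0 against 0.452 to 4.78 CPM) and DU (10.7 against 0.764 and 1.80 CPM). At D3.5 knockout U held 0, 3.58, 0.254, 0.392 and 0.486 CPM, with library 33 the highest, at a log2 fold change of −2.38 ± 0.96 (adjusted p = 0.969). DU had 0.166 to 0.309 CPM in knockout, below every control, at −4.13 ± 1.57 (adjusted p = 0.476).

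Aqp2, the vasopressin-regulated channel of the kidney collecting duct, was at most 0.484 CPM in any library and at 0 in all 5 knockout U libraries at D3.5, which allows up to 0.0238 CPM over the group. It was not tested. Of 12 genes of vasopressin and cAMP signalling, which governs Aqp2 in the kidney, 2 were higher and 3 lower in knockout LE at D0.5 and 2 were higher at D3.5. Of all genes 23.6% were called at D0.5 and 13.5% at D3.5, and 12 genes are too few to set the list apart from these shares. Prkar2b, a regulatory subunit of protein kinase A (−2.68 ± 0.35), and Pde4d, a cAMP phosphodiesterase (−1.56 ± 0.28), were lower and Adcy3, an adenylyl cyclase, higher (1.57 ± 0.44) at D0.5. At D3.5 Pde4d (1.20 ± 0.36) and Adcy6, another cyclase (0.76 ± 0.25), were higher.

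Ion transporters and channels, which set the osmotic gradients that aquaporins follow, changed in both directions in knockout LE. Of 29 tested genes of fluid transport (31 listed), 8 were higher and 6 lower at D0.5 (median 0.17) and 7 higher and 4 lower at D3.5 (median −0.06), beside −0.01 for all genes. Of all 15601 tested genes, 1708 were higher and 1968 lower at D0.5 (23.6% called) and 1215 higher and 890 lower at D3.5 (13.5%). At D0.5 the chloride channel genes Clcn2 (−4.32 ± 0.28) and Cftr (−2.24 ± 0.28) were lower, and Scnn1g, a subunit of the epithelial sodium channel, was higher (5.57 ± 0.72). At D3.5 the potassium channel genes Kcnn4 (2.54 ± 0.35) and Kcnq1 (1.93 ± 0.32) were higher and the anion exchanger gene Slc26a6 lower (−6.14 ± 1.01). In U at D0.5 4 of 28 tested were higher and 5 lower (4.98% of all genes called), and at D3.5 none was called (0.0185%). In DU 5 were higher and 5 lower at D0.5 (8.06%) and 1 lower at D3.5 (0.574%).

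LE and U were compared within each day and genotype; RNA of each tissue was isolated as its own batch, and the 2 cannot be told apart here. At D0.5 in control, 4 of 8 tested members differed (46.6% of all genes), with Aqp4 higher in LE (1.49 ± 0.52, adjusted p = 0.0156) and Aqp1 (−3.00 ± 0.41), Aqp9 (−1.96 ± 0.41) and Aqp11 (−0.77 ± 0.32, adjusted p = 0.0434) lower. The Aqp11 call was lost without any of 11 single libraries (−0.77 to −0.48) and the Aqp4 call on TPM. Aqp8 stood at 1.74 ± 1.35 (adjusted p = 0.305) and turned to −3.38 (adjusted p = 0.0119) without LE library 1. Control tissues at D3.5 also differed in 4 members (50.1% of all genes): Aqp11 was now higher in LE (2.87 ± 0.39, adjusted p = 6.41e-08), and Aqp1 (−1.65 ± 0.54), Aqp5 (−2.55 ± 0.99) and Aqp9 (−1.68 ± 0.56) were lower. Without LE library 14, 15 or 16 or U library 13 or 16 Aqp5 did not pass (−2.55 to −2.18), nor did Aqp9 without LE library 15 (−1.31). In knockout at D0.5 5 members differed (38.4% of all genes), with Aqp3 (2.53 ± 0.82) and Aqp4 (2.74 ± 0.66) higher in LE and Aqp1, Aqp8 and Aqp11 lower. In knockout at D3.5 7 members differed (47% of all genes), with Aqp3 (2.93 ± 0.76), Aqp4 (3.87 ± 0.65), Aqp5 (3.06 ± 0.89) and Aqp11 (2.41 ± 0.36) higher and Aqp1, Aqp8 and Aqp9 lower, the Aqp8 call being lost without any 1 of the 6 LE libraries or U library 33. Aqp8 at D0.5 in knockout was at 0 in LE and at 1.94, 1.04, 0.971 and 2.04 CPM in U, at least 82.0-fold lower against the 3-count limit over the group.

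With the mouse as a block, in mice with both tissues, 4 of these calls changed. Of all genes, that fit called 47.5% and 44.6% in control and 41.8% and 49% in knockout at D0.5 and D3.5. In control at D3.5 Aqp1 missed the threshold (−1.50, adjusted p = 0.0581) and Aqp4 passed (1.68, adjusted p = 0.0176), in knockout Aqp5 passed at D0.5 (1.42, adjusted p = 0.0444) and Aqp8 no longer did at D3.5 (−3.64, adjusted p = 0.15). DU was also compared with U over the 4 groups. As RNA of each tissue was its own batch, digestion and batch cannot be told apart in this comparison. The fit without the mouse, which leaves out that the DU mice are also U mice, called none of 8 members (0% of all genes). In it 1 member had an unadjusted p under 0.05 (Aqp7, 0.67 ± 0.32), and DESeq2 called 0. The same-mouse block called 42.6% of all genes and 4 members, at log2 fold changes of −0.20 for Aqp1 (adjusted p = 0.0239), −0.50 for Aqp5 (0.00676), 1.07 for Aqp7 (0.0056) and −0.30 for Aqp11 (0.0284). Aqp4 had 0.31 in that fit (adjusted p = 0.109).

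**Figure D5:**
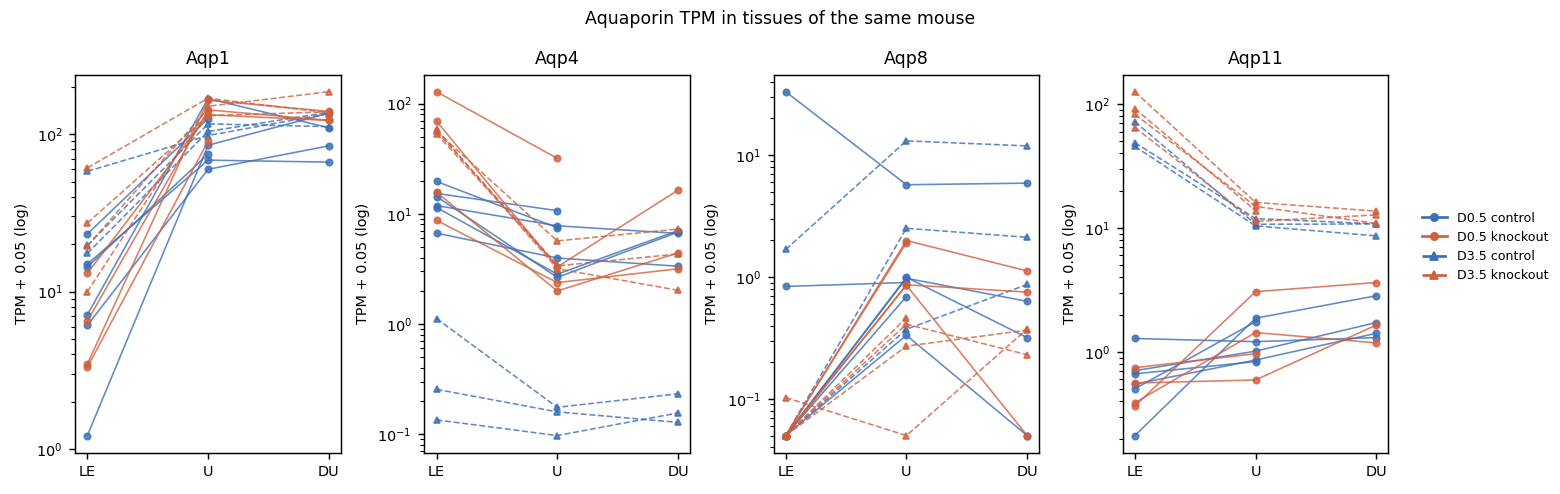
TPM + 0.05 (log axis) of Aqp1, Aqp4, Aqp8 and Aqp11 in LE, U and DU of the same mouse, with lines joining a mouse's libraries; blue control, orange knockout, solid D0.5, dashed D3.5. Aqp1 rises from LE to U in every mouse, Aqp11 falls from LE to U at D3.5, and Aqp8 of mouse 1 (solid blue) and mouse 16 (dashed blue) lies above that of the other mice of its group in each tissue.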

How the data were processed

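RNA was sequenced from LE, U and DU pieces of the same mice, in 59 libraries. The authors deposited gene-level estimated counts, made with kallisto 0.46.1 on mouse build GRCm39 per the submitters' processing notes. They also deposited TPM, transcript abundance scaled for length. Estimated counts were rounded, filtered with filterByExpr (minimum count 10, minimum total 15) and scaled by TMM, and CPM were taken on the scaled libraries of a tissue. Fits used edgeR 4.0.16 (quasi-likelihood, Benjamini-Hochberg adjustment over all genes, R 4.3.3) on all groups of the tissues compared, with group as the only term. Simulated independent counts were put only through the LE comparison of knockout against control at D3.5. That simulation does not cover the fits that join tissues of the same mice. Alternatives were median-of-ratios scaling, no filter, DESeq2 1.42.0, limma 3.58.1 on log2(TPM + 1) and log2(TPM + 0.1) for genes with a group mean of at least 1 TPM, a fit of only the 2 groups compared, leaving out single libraries, the mouse as a block, and LE without mice 35, 36 and 37. Numbers name animals, so LE and U (17 mice, median correlation of deviations 0.330) and U and DU (13 mice, 0.399) are paired. Members, marker lists and gene lists were chosen with earlier results of these data known. Other genes are named as the 3 most significant called genes of a list, and likeness as the 3 highest Pearson r among genes of at least 10 mean CPM in LE. Of these, 1 likeness result is not reported here.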

Additional observations from a re-analysis of the deposited data

Results flagged for a closer look

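Among 79 combinations of a gene and a group of 4 to 10 libraries, 16 had 1 library far from the others by Dixon's criterion. For normally distributed values chance flags about 1 in 20 groups. The criterion was put to CPM without a log, and the same mice recur across tissues, so 16 of 79 cannot be set against that share. In 4 of the 16 every other library was at 0, so that any count stands apart and the chance share does not apply (Aqp8 in control and knockout LE and Aqp2 in control LE and U, at D3.5). Control mouse 1 at D0.5 accounted for 7 of them: Aqp5 at 268 CPM in LE and 52.6 CPM in DU, Aqp8 at 41.0 CPM in LE, 5.72 CPM in U and 5.75 CPM in DU, and in DU Aqp11 at 4.76 CPM and Aqp2 at 0.387 CPM. That mouse also held the most Esr1 of the D0.5 controls in each tissue (273, 299 and 281 CPM in LE, U and DU). Control mouse 16 at D3.5 stood apart for Aqp8 in LE (1.97 CPM) and for Aqp2 in LE (0.0759 CPM) and U (0.137 CPM), values near the level of single counts for Aqp2.

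Aqp4 was apart in U of knockout mouse 21 at D0.5 (119.8 CPM), which also held the most Aqp4 in LE (478 CPM), and low in LE of knockout mouse 31 at D3.5 (63.1 CPM). Further libraries apart were Aqp3 in LE of control mouse 9 (5.71 CPM), Aqp2 in LE of control mouse 3 (0.318 CPM), Aqp8 in LE of knockout mouse 32 (0.0394 CPM) and Aqp8 in U of the library labelled knockout 33 (3.58 CPM), which also held more Esr1 than every control in U at D3.5.

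The effect of knockout differed between D3.5 and D0.5, by edgeR's quasi-likelihood test of the difference, for Aqp4 in LE (5.20 on the log2 scale, adjusted p = 1.48e-05) and DU (4.28, adjusted p = 0.025), Aqp5 in LE (3.86, adjusted p = 0.0495) and Aqp9 in LE (−3.54, adjusted p = 0.00176).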

How the results depend on the processing

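The number of members called moved by more than 1.5 times in these cases. Knockout against control in LE at D3.5 gave 1 in place of 2 without mice 35, 36 and 37, Aqp4 remaining. In U at D3.5 it gave 1 (Aqp4) with no filter and with DESeq2, in place of 0, while genes called went from 3 to 5 and 78. In DU at D0.5 it gave 0 in place of 1 with no filter, with limma on log2(TPM + 1) and log2(TPM + 0.1) and with only the groups compared (1306 genes called as reported and 1184, 1252, 1224 and 411 in these), and in DU at D3.5 0 in place of 1 with limma on log2(TPM + 1), where Aqp4 had 2.17 (adjusted p = 0.0763). The difference of effects between days gave 1 in U with DESeq2, in place of 0, and 0 in DU with limma on log2(TPM + 1), in place of 1. LE against U at D0.5 with limma on log2(TPM + 1) gave 2 in place of 4 in control and 3 in place of 5 in knockout. The mouse as a block gave 4 in place of 0 for DU against U; LE against U changed under the pairing only as the report gives. Smaller moves included 3 in place of 2 in LE at D3.5 with DESeq2 and both limma fits (Aqp3 added), 3 in place of 4 for the day change in knockout LE with no filter and both limma fits, and 2 in place of 3 for the LE difference between days without mice 35, 36 and 37. The cause of these changes was not tested.

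With each library left out, knockout against control called 2 members throughout in LE at D0.5, 1 to 3 in LE at D3.5, 0 in U at D0.5, 0 to 1 in U at D3.5 (1 without library 33), 0 to 1 in DU at D0.5 (Aqp1 in place of Aqp9 without control 8, 0 without any other) and 1 in DU at D3.5. Over all genes these comparisons called 3235 to 3966, 1651 to 2256, 459 to 967, 0 to 112, 608 to 1528 and 34 to 64 genes, in that order. D3.5 against D0.5 called 3 to 4 in control and 2 to 4 in knockout LE, 2 to 4 in control and 2 to 3 in knockout U, and 2 to 4 in control and 1 to 2 in knockout DU, beside 6131 to 7055, 5997 to 6575, 4836 to 5492, 3563 to 3926, 4275 to 5772 and 3749 to 4695 genes. Without mouse 1, Aqp8 and Aqp9 joined the calls of control U (2.42 and −0.99) and control DU (3.95 and −0.76). The difference between days called 2 to 3 in LE and 0 to 1 in U and DU, beside 2275 to 2769, 137 to 370 and 105 to 563 genes. LE against U called 3 to 4 and 2 to 4 in control at D0.5 and D3.5 and 5 to 5 and 6 to 7 in knockout. Over all genes these called 7205 to 7985, 7552 to 8156, 5669 to 6562 and 7159 to 7761. DU against U called 0 members, beside 0 to 2 genes. Only Aqp8 in LE against U at D0.5 in control turned direction with a call, over a range of −3.38 (without LE library 1) to 2.75 (main value 1.74). A further 106 uncalled values changed sign, and 4 had no adjusted p in DESeq2. Limma on TPM moved the median of all genes by −0.46 to 0.45 on the log2 scale. Aqp2 was too low at this depth for a difference to be detectable, and Aqp8 in LE rests on few libraries.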
